A study of Sus scrofa with 44 samples.

Results

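The genes of glycolysis and glycogen metabolism were followed in the longissimus dorsi, a back muscle, of pigs before birth, and were defined as a list of 38 gene symbols. Each symbol was matched to an Ensembl pig gene ID, which succeeded for 35 of the 38; LDHB, PGM1 and SLC2A1 had no matching ID in the expression files, which list 22427 genes. The muscle was sampled on days 33, 40, 50, 60, 70 and 95 after mating, here named E33, E40, E50, E60, E70 and E95. Each stage has 3 input libraries of rRNA-depleted RNA, 18 in all, beside 3 libraries enriched with an antibody to N6-methyladenosine (m6A). Expression values came from the input libraries, and 1 list of m6A peaks was used per stage. For comparison, 2 peak lists of the kidney cell line PK15, also from pig, were read, 1 from polyA RNA and 1 from rRNA-depleted RNA. The labels give the stage and the tissue and name no treatment, breed or mutation. They do not say whether the samples of a stage came from separate fetuses, so p-values measure the spread between these samples, which may be technical. The design text gives the regulation of m6A in muscle formation before birth as the subject of the series.

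Glycolysis splits glucose into pyruvate and yields ATP without oxygen, and fast skeletal muscle relies on it for short bursts of contraction. Glycogen is the muscle's own store of glucose: glycogen synthase extends its chains, the branching enzyme branches them, and glycogen phosphorylase, which phosphorylase kinase switches on, releases glucose units when the fibre contracts. Several steps are served by isoform genes, 1 used by many tissues and another favoured by muscle fibres, such as ENO1 and ENO3 for enolase or PYGB and PYGM for phosphorylase. N6-methyladenosine is the commonest internal modification of mRNA and lies mostly near stop codons and in long exons.

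The deposited unit is TPM, a level per transcript length that sums to 1000000 in every library, so the sequencing depth behind a value is unknown. A single gene without a symbol, ENSSSCG00000032395, took 37.4% to 72.4% of the total in each library. A second such gene, ENSSSCG00000032599, held 17.3% in E40 replicate 2 and 14.4% in E50 replicate 3, against 0.227% to 1.19% in the other 16 libraries. For this reason TPM was divided by a median-ratio size factor per library; the result is called scaled TPM here, and the values as deposited are given beside it. With scaling the median of the 13334 genes whose mean reached 1 TPM differed by 0.00 in log2 between E95 and E33, and with the deposited TPM it differed by -1.02. The size factor is built to hold the median gene near no change, so the 0.00 is no check of the scaling. Summed over 13 of 15 muscle fibre markers that matched, scaled TPM ran from 3938 to 4542 at E33 and from 24998 to 35964 at E95. The 8 matched of 10 neuronal markers summed to 106 to 139 at E33, 21.9 to 28.2 at E40 and 3.87 to 5.83 at E95, and the 8 matched of 11 erythroid markers to 88.4 to 237 at E33 and 13.2 to 47.6 at E40. For 5 cartilage markers the sum was 115 to 163 at E33, 64.6 to 112 at E40 and 29.5 to 37.7 at E95. For 4 of 5 proliferation markers it was 42.2 to 54.2 at E33, 47.8 to 54.3 at E40 and 14.7 to 18.1 at E95. Sums were higher at E95 than at E33 for 6 fibroblast markers (5711 to 8854 against 2799 to 3652), for 5 of 6 endothelial markers (68.5 to 79.5 against 17.3 to 22.1), for 5 adipocyte markers (16.7 to 70.5 against 1.49 to 2.59) and for 4 liver markers (56.9 to 109 against 38.4 to 43.5), and 4 of 5 glial markers gave 14.9 to 72.3 against 14.5 to 23.8. Of the defining markers in these and the immune and erythroid lists, PTPRC, KLF1, LEP, AFP and TF were below 1 TPM in every library. In such bulk samples, fewer cells of a type and less RNA per cell cannot be told apart, and the part of cell composition in the changes described here was not tested.

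The summed level of the 35 matched members was highest at E95. In scaled TPM it was 801 to 860.0 at E33 and 816 to 832 at E40. It was 957 to 1213 at E50, 1146 to 1360.0 at E60 and 1749.6 to 1976 at E70, and reached 3176 to 4703 at E95. As a share of the deposited TPM this was 0.102% to 0.160% at E33, 0.0388% to 0.126% at E40, 0.0365% to 0.119% at E50, 0.135% to 0.178% at E60, 0.180% to 0.192% at E70 and 0.210% to 0.274% at E95. GAPDH, which oxidises glyceraldehyde 3-phosphate, was the most abundant member at every stage and made up 38.8% of the summed level at E33 and 47.1% at E95. The next in order changed: at E33 ENO1 (158 scaled TPM) and PGAM1 (38.7) followed, at E95 ENO3 (579) and ALDOA (408).

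**Figure D1:**
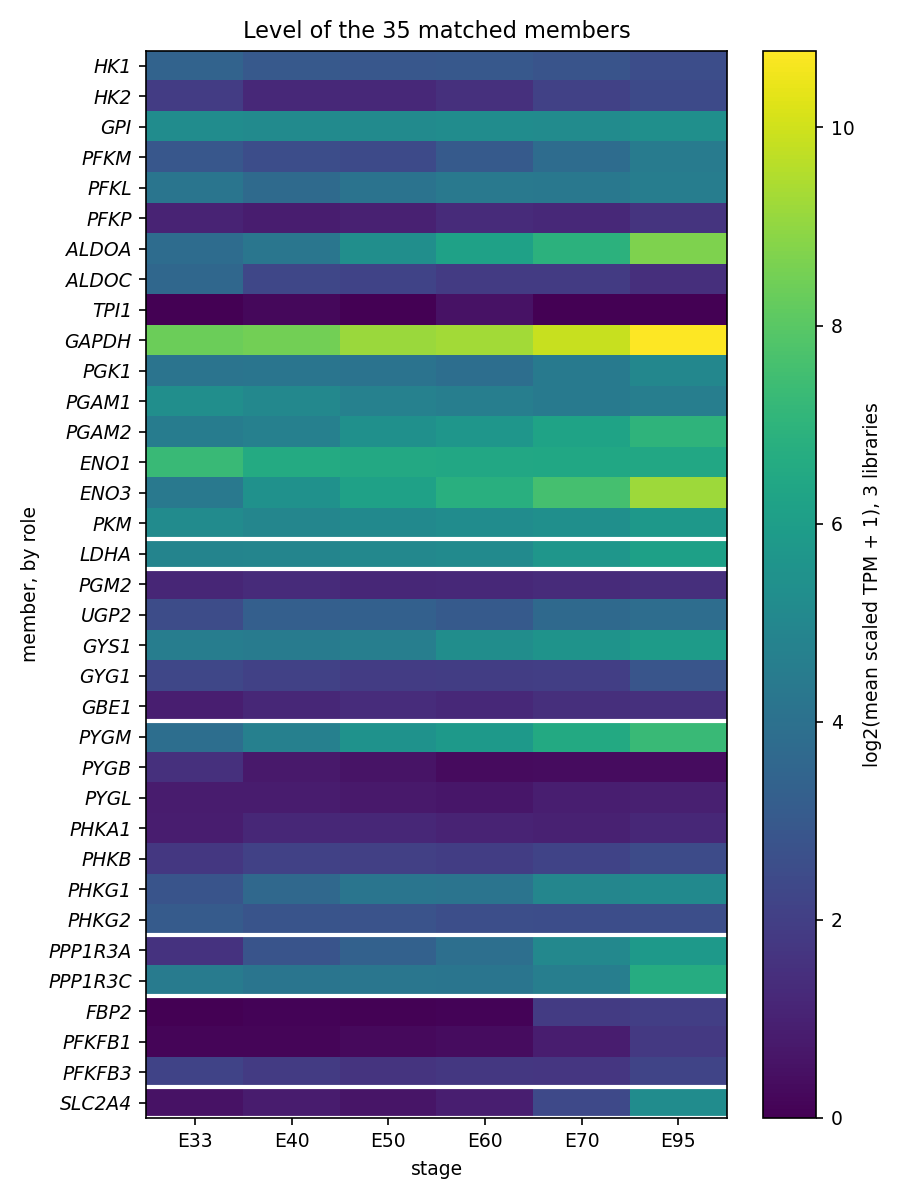
Colour gives log2 of the mean scaled TPM plus 1 over 3 input libraries, for each of the 35 matched members (rows, by role) at each of the 6 stages (columns). GAPDH is the brightest row at every stage, ENO3, ALDOA, PYGM and PPP1R3A brighten from left to right, and TPI1 stays near 0.

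Of the 35 matched members, 30 had a mean of at least 1 TPM and entered the fit, and PYGB, PYGL, FBP2, PFKFB1 and TPI1 did not. By limma's moderated F test over the 6 stages, 25 of the 30 differed at an adjusted p under 0.05, where 47.3% of all 13334 genes tested did. On the deposited TPM 15 did, where 20.1% of all genes did. Between E33 and E95, 26 of the 30 were called, where 46.7% of all genes were: 21 rose and 5 fell, against 23.7% of all genes tested rising and 23.1% falling. The median log2 change was 0.64 for the 30 members and 0.00 for all genes tested, which the scaling holds near 0. On the deposited TPM these medians were -0.24 and -1.02. With the deposited TPM 13 members were called, where 48.5% of all genes were; 7 of the 13 were higher and 6 lower, against 2.64% and 45.8% of all genes. The 7 were ALDOA, PGAM2, ENO3, PYGM, PHKG1, PPP1R3A and SLC2A4, all among the 21. A further 5 of the 21 (PFKM, GAPDH, UGP2, GYS1 and PPP1R3C) were above 0 without being called, and the other 9 (HK2, PFKP, PGK1, PKM, LDHA, GYG1, GBE1, PHKA1 and PHKB) were below 0, none of them called lower. The 5 members that fell were called lower on both scales. On the scaled values, all 3 E95 libraries lay above all 3 E33 libraries for 22 members and below for 5, where 28.0% and 27.3% of all genes tested did so.

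**Figure D2:**
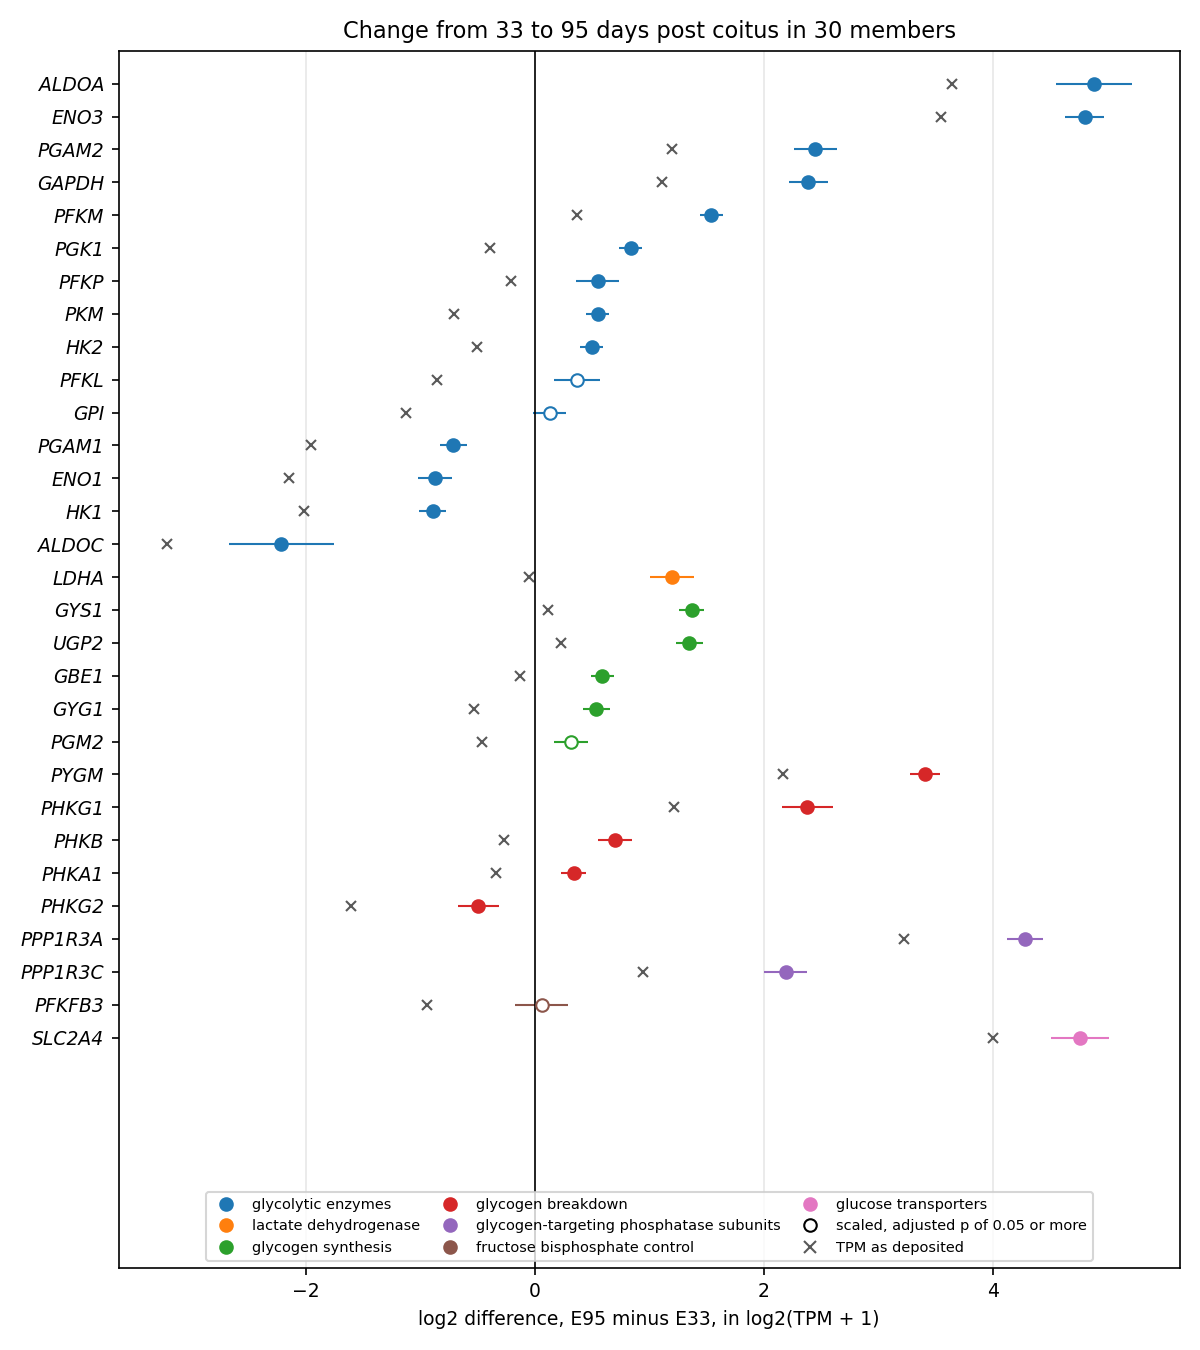
Each row is 1 of the 30 members tested; circles give the log2 difference of scaled TPM plus 1, E95 minus E33, with the standard error from limma, filled where the adjusted p was under 0.05, and crosses the same difference of the deposited TPM. The scaled differences reach from -2.21 (ALDOC) to 4.88 (ALDOA), and the crosses lie to the left of the circles throughout.

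Among the 16 glycolytic enzymes of the list, 15 were tested between E95 and E33; 9 rose and 4 fell, and with the deposited TPM 3 rose and the count that fell was again 4. ALDOA, the aldolase of muscle, which splits fructose 1,6-bisphosphate, had the largest log2 rise of the 30 members on the scaled values. Its scaled TPM was 8.40, 13.3 and 17.8 in the E33 libraries, 18.2, 11.6 and 23.8 at E40, 49.1, 28 and 38.9 at E50, 48.2, 90.2 and 76.3 at E60, 113, 95.0 and 153 at E70, and 331, 533 and 359 at E95. The lowest E95 library was above the highest of any earlier stage. The log2 change from E33 to E95 was 4.88 ± 0.33 (SE; adjusted p = 2.80e-08), and 3.64 with the deposited TPM, where SLC2A4 had the larger rise, 4.0. ALDOC, the aldolase best known from brain, went the other way. It measured 11.2, 10.4 and 12 scaled TPM at E33, then 1.78, 5.69 and 4.44 at E40, 1.25, 1.35 and 7.73 at E50, 2.35, 2.53 and 2.94 at E60, 3.52, 1.59 and 2.71 at E70, and 3.02, 1.45 and 0.831 at E95. The E33 libraries lay above all the others, and the highest values at E40 and E50 came from the 2 libraries in which ENSSSCG00000032599 held over 10% of the TPM. ALDOC fell by 2.21 ± 0.46 on the log2 scale (adjusted p = 0.00112), beside the fall of the neuronal markers given above, whose part in it was not tested. The ID of its neighbour SPAG5 had a mean of 0.146 scaled TPM at E33, 4.89 at E40 and 1.58 at E95. The means of ALDOC at those stages were 11.2, 3.97 and 1.77. Whether reads of either gene were counted under the ID of the other was not tested.

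ENO3 encodes the enolase of muscle fibres and ENO1 the widely used one; the enzyme makes phosphoenolpyruvate. Scaled TPM of ENO3 was 22.4, 17 and 19.8 at E33, 45.6, 36.8 and 47.4 at E40, 79.1, 53.7 and 81.1 at E50, 96.7, 102 and 127 at E60, 206, 181 and 192 at E70, and 525, 683 and 527 at E95. No stage overlapped the next, and the log2 change from E33 to E95 was 4.80 ± 0.17 (adjusted p = 9.57e-11). ENO1 stood at 159.8, 158 and 158 scaled TPM at E33, at 90.7, 110.2 and 87.7 at E40, 99.4, 79.3 and 94.0 at E50, 79.9, 96.0 and 85.1 at E60, 85.7, 87.1 and 83.4 at E70, and 85.4, 111 and 67.1 at E95. Its E33 libraries were above all later ones. From E40 on each stage overlapped the next, though every E40 library was above every E70 library. The fall from E33 to E95 was by 0.87 ± 0.15 on the log2 scale (adjusted p = 0.000298). Isoform genes such as these are similar in sequence, and how the authors' counting treated reads that match both is not given in the sources used here.

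PGAM2 and PGAM1 encode the muscle and the widely used phosphoglycerate mutase, which moves the phosphate from carbon 3 to carbon 2 of glycerate. PGAM2 gave 23.9, 20.3 and 22.2 scaled TPM at E33, 26.3, 25.6 and 23.2 at E40, 49.9, 30 and 43.4 at E50, 44.4, 50.1 and 52.2 at E60, 78.0, 66.9 and 78.0 at E70, and 122, 165 and 97.4 at E95. The E33 and E40 libraries overlapped, as did those of E50 and E60, and the change from E33 to E95 was 2.45 ± 0.19 (adjusted p = 8.84e-08). PGAM1 gave 42.3, 38 and 35.8 at E33, 31.6, 36.1 and 28.2 at E40, 23.8, 27.9 and 24.3 at E50, 24.6, 23.8 and 21.1 at E60, 17.9, 23.6 and 19.4 at E70, and 23.8, 23.6 and 22.0 at E95. It fell by 0.71 ± 0.12 on the log2 scale (adjusted p = 0.000157), and from E50 on every library was below every E33 and E40 library.

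Phosphofructokinase commits glucose to glycolysis, and its muscle gene PFKM dipped before it rose. The libraries held 6.29, 6.24 and 7.50 scaled TPM of PFKM at E33, 4.90, 4.57 and 5.03 at E40, 4.60, 3.70 and 4.68 at E50, 6.34, 7.33 and 7.94 at E60, 12, 13.3 and 13.4 at E70, and 20.6, 22.4 and 21.1 at E95. The log2 change was -0.39 ± 0.10 from E33 to E40 (adjusted p = 0.0118) and 1.54 ± 0.10 from E33 to E95 (adjusted p = 1.45e-08). PFKP, the platelet type, was low throughout, at 1.31, 1.01 and 0.937 scaled TPM at E33, 0.684, 1.11 and 0.626 at E40, 1.47, 0.519 and 0.903 at E50, 1.63, 1.79 and 1.12 at E60, 1.35, 1.10 and 1.68 at E70, and 2.47, 2.03 and 1.71 at E95. Its rise of 0.55 ± 0.19 (adjusted p = 0.0241; -0.21 with the deposited TPM) was lost when E33 replicate 2 or 3 or E95 replicate 1 or 2 was left out, with adjusted p from 0.0511 to 0.0923. PFKL, the liver type, was not called, with 0.37 ± 0.20 (adjusted p = 0.143).

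Hexokinase, which traps glucose in the cell as glucose 6-phosphate, is encoded by HK1 and HK2 on the list. HK1 measured 9.56, 8.82 and 10.5 scaled TPM at E33, 6.33, 7.48 and 7.39 at E40, 6.40, 6.16 and 7.20 at E50, 6.87, 7.63 and 5.89 at E60, 5.94, 6.12 and 5.66 at E70, and 4.60, 5.73 and 3.94 at E95, a fall by 0.89 ± 0.12 on the log2 scale (adjusted p = 1.87e-05). All later libraries were below the E33 range. HK2, the hexokinase of insulin-sensitive muscle, fell by 0.69 ± 0.10 from E33 to E40 (adjusted p = 0.000210), from a mean of 2.80 to 1.36 scaled TPM, and reached 4.38 at E95, 0.50 ± 0.10 above E33 (adjusted p = 0.000670) but -0.50 with the deposited TPM, where the difference was not called.

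The remaining glycolytic enzymes shared no single course. GAPDH rose by 2.39 ± 0.17 (adjusted p = 4.51e-08), from 324 ± 19.6 to 1751 ± 530.4 scaled TPM (SD, n = 3 each). PGK1, which makes the first ATP of the pathway, rose by 0.84 ± 0.10 and PKM, the pyruvate kinase of muscle and many other tissues, by 0.55 ± 0.10, where the deposited TPM gave -0.39 and -0.70, not called. GPI, which turns glucose 6-phosphate into fructose 6-phosphate, was not called at 0.13 ± 0.14 (adjusted p = 0.472), and its stage means lay between 34.9 and 40.7 scaled TPM. On TPM rescaled without the 2 most abundant genes GPI was called lower (-0.54, adjusted p = 0.00762). LDHA, which reduces pyruvate to lactate, rose by 1.20 ± 0.19 (adjusted p = 0.000111), from 25.1 to 32.9 scaled TPM at E33 to 51.5 to 95.7 at E95, and differed by -0.05 with the deposited TPM. TPI1, the triose phosphate isomerase that all glycolysing cells need, was listed at 1e-05 TPM or less in 16 of the 18 libraries, at 0.227 in E40 replicate 2 and at 1.68 in E60 replicate 3. The ID of its neighbour SPSB2, whose RefSeq gene ends at chr5:63839075 while TPI1 lies at chr5:63839473-63842853, was listed at 18.5 to 125 TPM, so the level of TPI1 was not read from these files.

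**Figure D3:**
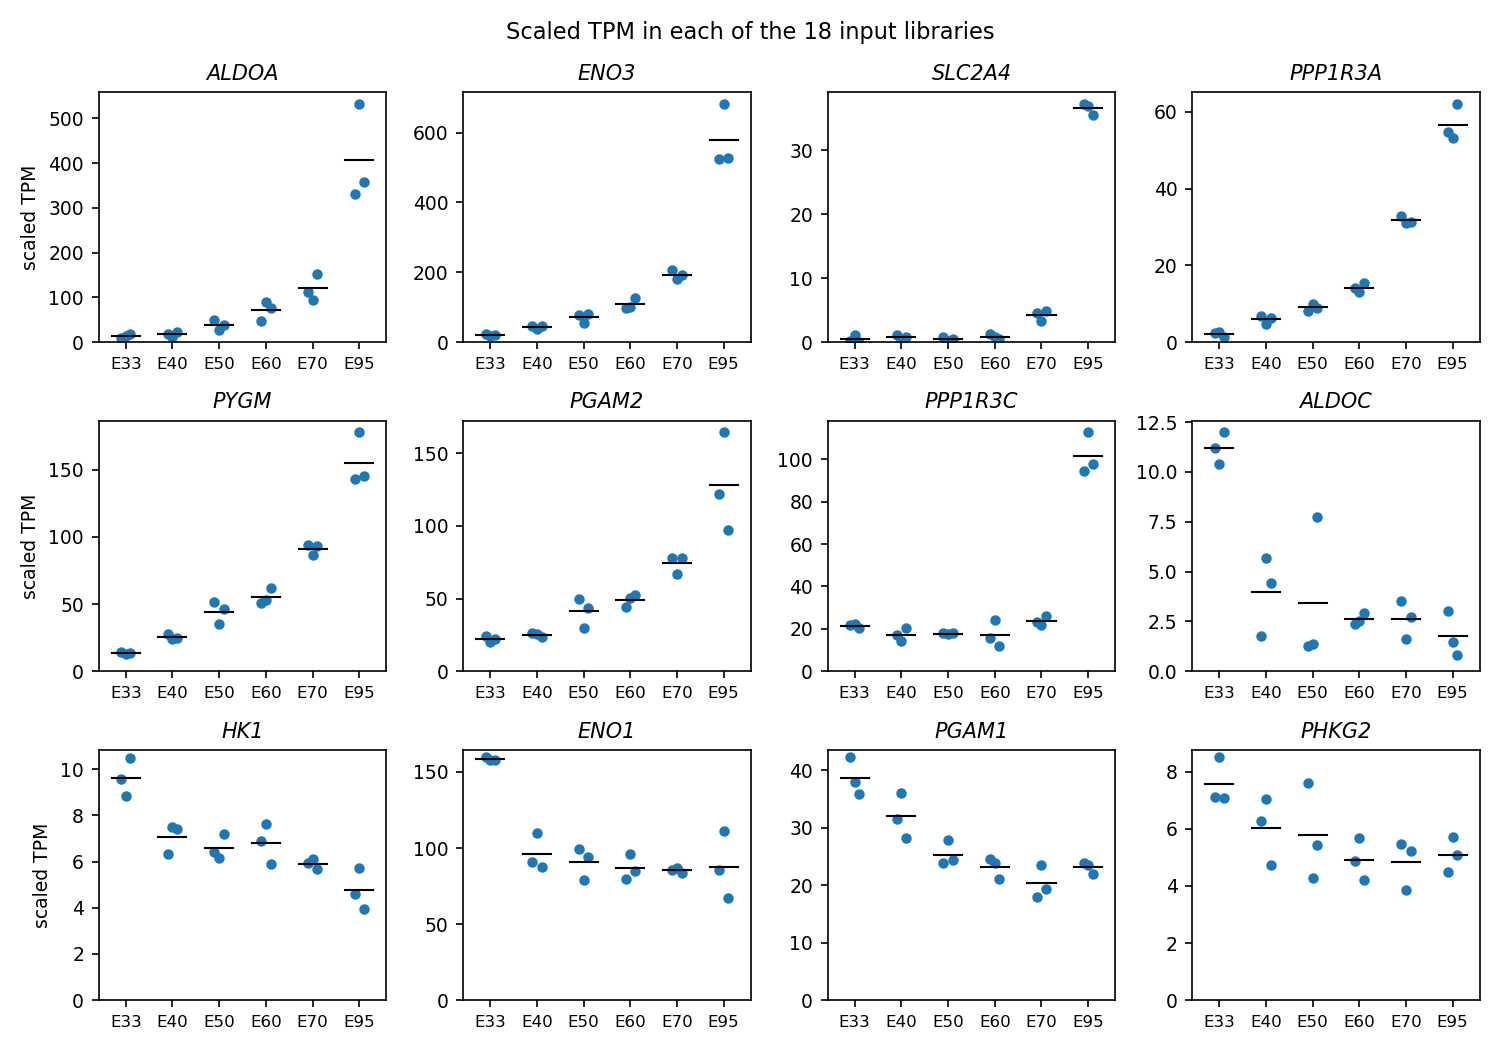
Each panel plots scaled TPM (vertical axis from 0) of 1 member by stage; dots are the 3 input libraries and bars their means. The first 7 panels rise towards E95, with SLC2A4 and PPP1R3C low until E70, and the last 5 (ALDOC, HK1, ENO1, PGAM1, PHKG2) are highest at E33.

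Glucose enters the fibre through transporters. SLC2A4, or GLUT4, is the transporter that insulin and contraction bring to the surface of muscle fibres. It was listed at 0.226, 1.15 and 0 scaled TPM in the E33 libraries, 1.11, 0.357 and 0.840 at E40, 0.792, 0.220 and 0.526 at E50, 1.22, 0.787 and 0.565 at E60, 4.52, 3.33 and 4.90 at E70, and 37.2, 36.8 and 35.5 at E95. The first 4 stages overlapped, and E70 and E95 each lay above all libraries before them. The log2 change was 1.50 ± 0.25 from E60 to E70 (adjusted p = 0.00651) and 2.85 ± 0.25 from E70 to E95 (adjusted p = 9.08e-06), the largest rise among the 30 members in each of those steps. The call between E60 and E70 was lost with a pseudocount of 0.1 (2.22, adjusted p = 0.145), on TPM rescaled without the 2 most abundant genes (1.74, adjusted p = 0.0569) and on TPM as deposited (1.35, adjusted p = 0.904). On the deposited TPM the second step was 2.31 (adjusted p = 0.0147), the only call of a member between E70 and E95 on that scale.

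In the synthesis of glycogen, 4 of the 5 genes tested rose from E33 to E95 and none fell; with the deposited TPM 0 of the 5 were called. GYS1, the glycogen synthase of muscle, rose by 1.37 ± 0.11 (adjusted p = 1.99e-07); its stage mean stayed between 21.6 and 23.2 scaled TPM up to E50 and then went to 37.6 at E60, 45.7 at E70 and 60.0 at E95. The step from E50 to E60 (0.67 ± 0.11, adjusted p = 0.0110) was the largest among the called members between those stages (ALDOA, at 0.86 ± 0.33, was not called), and its adjusted p was 0.0556 without E60 replicate 2 and 0.0569 without E60 replicate 3. UGP2, which makes the UDP-glucose that the synthase uses, rose by 1.35 ± 0.12, most of it by E40 (0.80 ± 0.12, adjusted p = 0.000464). GBE1, the branching enzyme, rose by 0.59 ± 0.10 and GYG1, the protein primer of new glycogen particles, by 0.54 ± 0.12; with the deposited TPM these were -0.13 and -0.53, not called. The largest step of GYG1, 0.87 ± 0.12, was between E70 and E95. PGM2 was not called (0.32 ± 0.15, adjusted p = 0.0900), but was with quantile normalization (0.40, adjusted p = 0.0208).

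In the breakdown of glycogen, 4 of the 5 genes tested rose and 1 fell, against 2 and 1 with the deposited TPM. PYGM, the phosphorylase of muscle, the gene altered in McArdle disease, gave 14.6, 12.8 and 13.6 scaled TPM at E33, 27.3, 23.7 and 24.5 at E40, 51.2, 35.4 and 46.1 at E50, 50.6, 53.3 and 61.8 at E60, 93.6, 86.7 and 92.9 at E70, and 143, 178 and 145 at E95. Only the E50 and E60 libraries overlapped, and the log2 change from E33 to E95 was 3.41 ± 0.13 (adjusted p = 1.47e-10). PYGB, the brain type, had a mean under 1 TPM and was fitted only without the filter on low values. It was at 1.70, 1.83 and 1.93 scaled TPM at E33, 0.445, 1.09 and 0.428 at E40, 0.380, 0.413 and 0.720 at E50, 0.286, 0.267 and 0.228 at E60, 0.273, 0.194 and 0.429 at E70, and 0.356, 0.199 and 0.281 at E95. That fit gave -1.14 ± 0.13 from E33 to E95 (adjusted p = 1.02e-05), and the E33 libraries were above all others. PYGL, the liver type, stayed at 0.531 to 1.31 scaled TPM over the 18 libraries.

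Phosphorylase kinase, which activates phosphorylase in response to calcium and adrenaline, is built of regulatory and catalytic subunits. PHKG1, the catalytic subunit of muscle, rose by 2.38 ± 0.22 (adjusted p = 7.08e-07), from 9.48, 4.41 and 4.27 scaled TPM at E33 to 32.3, 35.6 and 33.6 at E95. PHKG2, its counterpart best known from liver and testis, was at 7.10, 8.53 and 7.07 at E33, 6.28, 7.05 and 4.73 at E40, 7.62, 4.27 and 5.43 at E50, 4.86, 5.69 and 4.22 at E60, 5.47, 3.87 and 5.22 at E70, and 4.49, 5.70 and 5.08 at E95. It fell by 0.49 ± 0.18 on the log2 scale (adjusted p = 0.0352), a call that was lost without any 1 of the 3 E33 libraries or of E95 replicates 1 and 3 (adjusted p 0.0532 to 0.117). Of the regulatory subunits, PHKB rose by 0.70 ± 0.15 and PHKA1 by 0.34 ± 0.11 (adjusted p = 0.0182), where the deposited TPM gave -0.27 and -0.34, not called; PHKA1 had an adjusted p of 0.0899 without E33 replicate 1.

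Both glycogen-targeting subunits of protein phosphatase 1, which bring the phosphatase to the glycogen particle where it activates the synthase, rose, but on different courses. PPP1R3A, the subunit of striated muscle, was at 2.29, 2.56 and 1.23 scaled TPM at E33, 6.94, 4.63 and 6.26 at E40, 8.22, 9.94 and 8.95 at E50, 14.2, 13 and 15.3 at E60, 32.8, 31.0 and 31.4 at E70, and 54.7, 53.2 and 62.1 at E95. No stage overlapped the next, and the change from E33 to E95 was 4.28 ± 0.16 (adjusted p = 1.19e-10). PPP1R3C, which is found in many tissues, had stage means of 17.3 to 23.7 scaled TPM from E33 to E70 and reached 94.4, 113 and 97.7 at E95. Its step from E70 to E95 was 2.05 ± 0.19 (adjusted p = 1.01e-05), out of 2.19 ± 0.19 from E33 to E95.

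Fructose 1,6-bisphosphatase and the bifunctional phosphofructokinases control the step between fructose 6-phosphate and its bisphosphate. FBP2, the bisphosphatase of muscle, was listed at 0 to 0.150 scaled TPM in the 12 libraries up to E60, at 3.40, 2.02 and 2.62 at E70 and at 2.43, 3.47 and 3.12 at E95. PFKFB1 rose more gradually, from 0.0430 to 0.250 scaled TPM at E33 to 0.743 to 0.894 at E70 and 1.52 to 3.56 at E95. Both were under the filter; without it, the log2 change from E33 to E95 was 1.97 ± 0.12 for FBP2 (adjusted p = 3.47e-08) and 1.60 ± 0.15 for PFKFB1 (adjusted p = 1.48e-06), on a scale that understates the change of low genes. The step of FBP2 from E60 to E70 was 1.77 ± 0.12 in that fit (adjusted p = 4.46e-06). PFKFB3, the inducible form, was not called (0.06 ± 0.23, adjusted p = 0.855), but was called lower with the deposited TPM (-0.94, adjusted p = 0.0265).

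The ratio of the muscle gene to the widely used gene of an enzyme is taken within a library, so scaling does not alter it. ENO3 to ENO1 was 0.140, 0.108 and 0.126 at E33, 0.503, 0.334 and 0.540 at E40, 0.796, 0.677 and 0.863 at E50, 1.21, 1.06 and 1.49 at E60, 2.40, 2.08 and 2.30 at E70, and 6.15, 6.15 and 7.86 at E95. The stages did not overlap at any step, the ratio passed 1 at E60, and its geometric mean was 53.9 times as high at E95 as at E33. PGAM2 to PGAM1 was 0.564, 0.534 and 0.621 at E33, 0.833, 0.709 and 0.823 at E40, 2.10, 1.07 and 1.79 at E50, 1.81, 2.11 and 2.47 at E60, 4.34, 2.84 and 4.02 at E70, and 5.10, 7.0 and 4.42 at E95, an increase of 9.45 times that passed 1 at E50. PYGM to PYGB was 8.60, 7.01 and 7.06 at E33, 61.3, 21.7 and 57.2 at E40, 135, 85.7 and 64.0 at E50, 177, 199.5 and 271 at E60, 343, 448 and 217 at E70, and 401, 894 and 517 at E95, an increase of 75.8 times; PYGM led at every stage, and the denominator was below 1 scaled TPM in nearly all libraries after E33. Each of these 3 ratios differed over the 6 stages with p = 1e-05 (permutation test of the F statistic, 100000 draws), the smallest that the draws can give, and with 1.33e-05 after adjustment over the 4 ratios.

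PFKM to PFKP changed less. It was 4.80, 6.16 and 8.01 at E33, 7.17, 4.12 and 8.04 at E40, 3.13, 7.12 and 5.19 at E50, 3.88, 4.09 and 7.11 at E60, 8.89, 12.1 and 7.99 at E70, and 8.32, 11 and 12.3 at E95. The geometric mean was 1.68 times as high at E95 as at E33, with all 3 E95 libraries above all 3 at E33. The permutation test over the 6 stages gave an adjusted p of 0.0421, which went above 0.05 on leaving out 1 of 9 libraries: E33 replicate 2, E40 replicate 1, E50 replicate 3, E60 replicates 1 and 2, E70 replicates 1 and 2, and E95 replicates 2 and 3, with p up to 0.0955. For each of the 4 ratios, the exact permutation test of E95 against E33 gave p = 0.10, the smallest that 3 against 3 libraries allow. PHKG1 to PHKG2, set beside them after its values were seen, had geometric means of 0.747 at E33 and 1.95 at E40, then 3.04 at E50 and 3.42 at E60, and last 6.21 at E70 and 6.68 at E95.

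**Figure D4:**
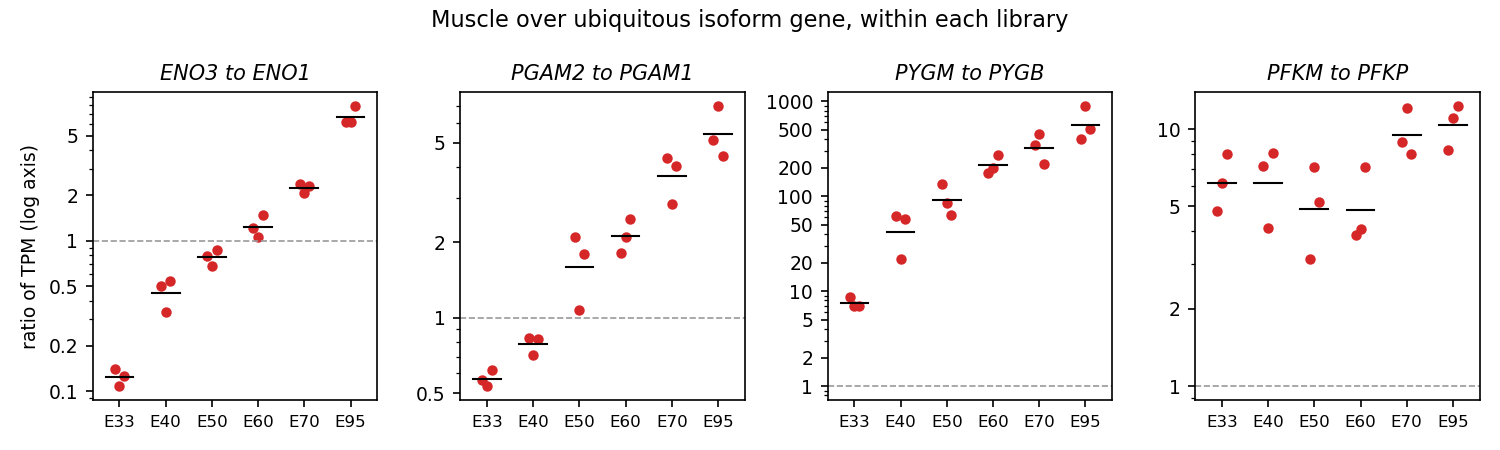
The ratio of deposited TPM of the muscle gene to that of the other gene is plotted on a log axis for each of the 18 input libraries by stage, with bars at the geometric mean of 3 libraries and a dashed line at 1. ENO3 to ENO1 passes 1 at E60 and PGAM2 to PGAM1 at E50, PYGM to PYGB stays above 1, and PFKM to PFKP moves within 3.13 to 12.3.

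The calls fell mainly into an early and a late phase. Calls over all genes tested were likewise most frequent in the first and the last step, so frequent calls there are not particular to the members. Between E60 and E70 the courses differed on the scaled values, with 8 of the 30 members called where 1.73% of all genes were. Between E33 and E40, 11 of the 30 members were called, 6 higher and 5 lower, where 20.9% of all genes tested were called, 9.97% higher and 10.9% lower. PPP1R3A had the largest rise (1.21 ± 0.16, adjusted p = 0.000124), followed by ENO3, PHKG1, PYGM, UGP2 and PHKA1, and ALDOC the largest fall (-1.38 ± 0.46, adjusted p = 0.0452), followed by ENO1, HK2, HK1 and PFKM. The fall of ALDOC missed the threshold in 12 of the 18 fits that left out 1 library, with adjusted p up to 0.190 there, and with the replicate block (0.0591), a pseudocount of 0.1 (0.0759) or no filter (0.0638); the leave-one-out fits that kept it left out E40 replicate 2, 1 of the 3 E50 libraries, or E95 replicate 1 or 3. The count ran from 6 without E33 replicate 3 to 14 without E40 replicate 2. The erythroid, neuronal and cartilage marker sums were lower at E40 than at E33. So was the glial sum, at 6.85 to 8.52 scaled TPM against 14.5 to 23.8. The part of these cell types in the changes of the members was not tested.

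The middle steps held few calls. From E40 to E50, PYGM was the 1 member called (0.78 ± 0.13, adjusted p = 0.00971), where 1.51% of all genes were called and 0.975% were called higher. It was not called on leaving out E50 replicate 1 (adjusted p = 0.0602) or both libraries in which ENSSSCG00000032599 held over 10%, and 2 to 4 members were called without E50 replicate 2, E95 replicate 2 or E95 replicate 3. From E50 to E60, GYS1 and PFKM rose, where 0.817% of all genes were called and 0.547% were called higher; 1 member was called without E60 replicate 2 or 3, or without both libraries, and 3 members were called without E33 replicate 3.

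The late steps held rises and, on the scaled values of all 18 libraries, no called fall. Between E70 and E95 without E95 replicate 2, 1 member was called lower and 10 higher, where 659 and 604 of 13399 genes were. On TPM rescaled without the 2 most abundant genes, 1 member was called lower and 8 higher in that step, where 2150 and 293 of 13332 genes were. Between E60 and E70, 8 of the 30 were called (HK2, PFKM, PGK1, ENO3, UGP2, PYGM, PPP1R3A and SLC2A4), where 1.73% of all genes were called, 1.17% higher and 0.562% lower. The count was 5 without E60 replicate 1, E70 replicate 1 or E70 replicate 3. Between E70 and E95, 14 of the 30 were called higher, where 13.6% of all genes were called, 6.84% higher and 6.73% lower. These were HK2, PFKM, ALDOA, GAPDH, PGK1, PGAM2, ENO3, PKM, GYS1, GYG1, PYGM, PPP1R3A, PPP1R3C and SLC2A4. For 9 of the 21 members that rose from E33 to E95 the largest single step was that from E70 to E95, and for 7 it was that from E33 to E40. The steps are unequal in days, E70 to E95 being the longest and E33 to E40 the shortest. A steady rise would thus also have its largest step from E70 to E95. Largest steps were not counted over all genes. With the deposited TPM, the counts for the 5 consecutive steps were 2, 0, 0, 0 and 1, where 4.87%, 0.00750%, 0.0600%, 0.0825% and 0.285% of all genes tested were called.

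Further genes around the pathway were read from 3 lists. Of 38 further genes of glycolysis and glycogen, 33 matched and 25 were tested; 10 rose and 4 fell from E33 to E95, with a median of 0.05. For these lists, as for the members, 23.7% of all genes tested rose and 23.1% fell, with a median of 0.00. PPP1R3B, another glycogen-targeting subunit, rose by 3.30 ± 0.12 (adjusted p = 8.59e-11), from 3.18 to 4.59 scaled TPM at E33 to 45.0 to 49.6 at E95. SLC37A4, the glucose 6-phosphate carrier of the endoplasmic reticulum, fell by 0.51 ± 0.19 on the log2 scale (adjusted p = 0.0382), a call that was lost without E33 replicate 1 or 3 or E95 replicate 1 (adjusted p 0.0739 to 0.195), with the replicate block (0.0540) and with no filter (0.0515).

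Of 23 genes for the fate of pyruvate and lactate, 17 were tested, and 13 rose and 1 fell, with a median of 0.89. Those that rose include SLC16A3, the lactate exporter of glycolytic muscle, and the pyruvate dehydrogenase kinases PDK1, PDK2 and PDK4, which restrain the entry of pyruvate into mitochondria, besides PDHA1, PDHB, DLAT and DLD of the dehydrogenase itself. PC, pyruvate carboxylase, fell by 0.91 ± 0.28 (adjusted p = 0.0157), with an adjusted p of 0.0556 without E33 replicate 1 and 0.0771 without E95 replicate 3. Of 25 regulators, 22 were tested, and 14 rose and 2 fell, with a median of 0.60. PRKAG3, the regulatory subunit of AMP-activated protein kinase found in glycolytic muscle, whose variants alter glycogen in pig muscle, rose by 3.13 ± 0.19 (adjusted p = 9.94e-09), from 0.00106 to 0.205 scaled TPM at E33 to 7.83 to 8.56 at E95. PPARGC1A, a coactivator of mitochondrial genes, rose by 3.20 ± 0.23 (adjusted p = 5.65e-08), and MYC fell by 0.54 ± 0.20 (adjusted p = 0.0367), a call lost without E33 replicate 1 or 3 or E95 replicate 3 (adjusted p 0.0940 to 0.169) and with the replicate block (0.0526). With the deposited TPM, 2, 1 and 4 genes of the 3 lists were called higher and 11, 3 and 5 lower, of 25, 17 and 22 tested, where 2.64% of all genes were called higher and 45.8% lower.

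Peaks of m6A were read from 1 list per stage, so their numbers and enrichments have no replicates and were not tested. The fold enrichment is the authors' value per peak. The lists name a gene for each peak, and by that name 7 members had a peak at E33, 4 at E40 and 4 at E50, followed by 6 at E60, 7 at E70 and 8 at E95. All of these members had at least 1 TPM at the stage, a level that 31, 29, 28, 30, 30 and 31 members reached. The members with a peak were thus 22.6%, 13.8%, 14.3%, 20.0%, 23.3% and 25.8% of those, where a peak was named for 33.5%, 22.9%, 32.6%, 31.7%, 35.6% and 37.5% of all genes at that level. Over the 6 stages 11 members were named and 24 were not, among them PFKM, PGAM1, ENO1, LDHA, UGP2, GBE1 and SLC2A4. In PK15 cells a peak was named for 23 of the 35 members in the polyA list and for 10 in the rRNA-depleted list. Of all 22427 genes, 37.7% and 23.7% had one. No PK15 expression was read, so these shares include genes at any level and cannot be set beside those of the stages.

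The names were checked against the exons of RefSeq genes on Sscrofa11.1, the build of both the lists and the reference. Of the 51 peaks named for members in the stage lists, 41 lay over an exon of that member. The other 10 were all 5 peaks named for ALDOC, which lay in exons of its neighbour SPAG5, and all 5 named for ENO3, which lay in exons of its neighbour SPAG7 at chr12:51952715-51953015. These included the highest fold enrichments named for a member at E40 (8.24) and E50 (15.8), both under ALDOC. No peak of the stage lists therefore lay over an exon of ENO3 or ALDOC, and whether the TPM under these 2 IDs includes reads of the neighbours was not tested. Conversely, peaks named for another gene lay over exons of members without an ID: over SLC2A1 at all 6 stages, under the name P3H1, and over PGM1 at E60, E70 and E95, under EFCAB7. A peak at E33 over an exon of TPI1 (fold enrichment 1.61) was named for SPSB2. By RefSeq exons, 7, 4, 3, 7, 8 and 9 of the 38 members had a peak at the 6 stages in order, where 23.0%, 14.7%, 20.0%, 20.6%, 22.7% and 22.2% of all RefSeq coding genes did. In PK15 cells 20 of the 38 did in the polyA list and 9 in the rRNA-depleted list, where 41.5% and 25.9% of all RefSeq coding genes did. These include 18 of the 23 members named in the polyA list and 8 of the 10 named in the rRNA-depleted list.

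**Figure D5:**
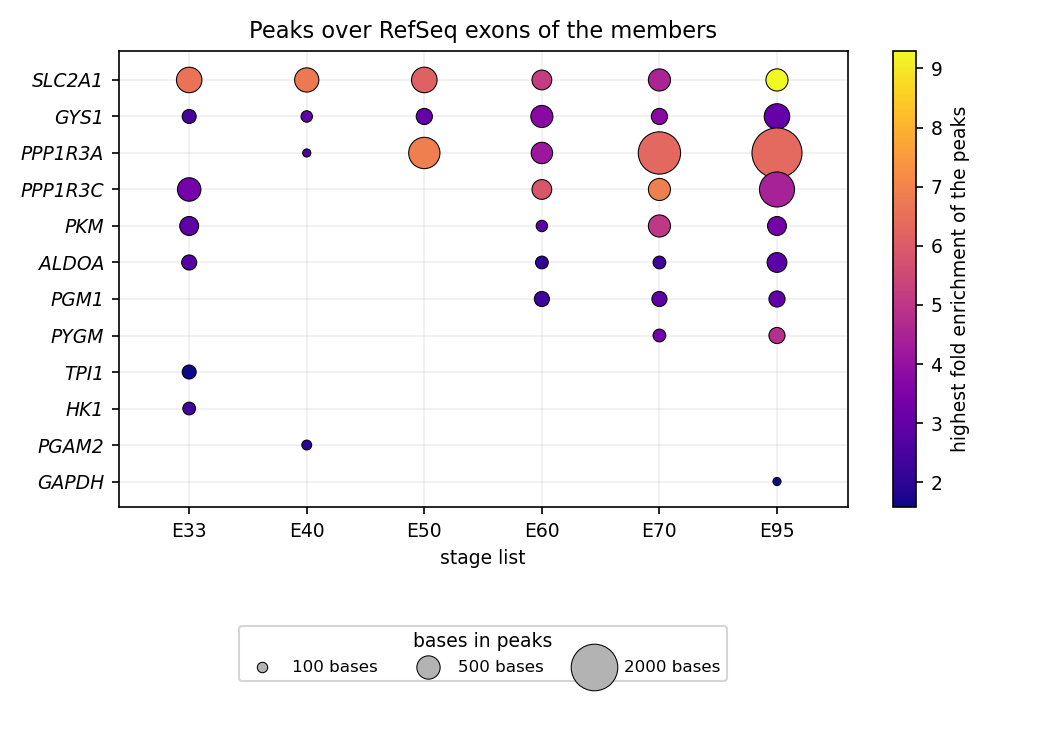
Each circle marks peaks over RefSeq exons of a member (rows) in a stage list (columns); its area gives the bases in those peaks and its colour their highest fold enrichment, from the authors' lists with no replicates. SLC2A1 and GYS1 have circles at all 6 stages, PPP1R3A goes from 61 bases at E40 to 2307 at E95 with fewer at E60 (423) than at E50 (903), and PYGM appears at E70 and E95.

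GYS1 was the 1 member named with a peak in all 6 stage lists. Its peaks covered 181, 121, 241, 450, 241 and 600 bases from E33 to E95, with fold enrichments of 2.46, 2.91, 3.05, 3.77, 3.77 and 3.08, and each included the last coding bases before the stop codon, in the last exon. The peak of the rRNA-depleted PK15 list at chr6:54235671-54235911 covered the same place, and that of the polyA list lay in the 3′ UTR at chr6:54235162-54235461. PPP1R3A had no peak at E33, when its level was lowest, 1 peak of 61 bases at E40, and 903, 423, 1650 and 2307 bases in peaks at E50, E60, E70 and E95, with a highest fold enrichment of 6.88, 4.15, 6.29 and 6.34 there. All of this lay in the long coding exon 4 but for 61 bases at E70 and 270 at E95 in exon 1. The mean level of PPP1R3A from E33 to E95 was 2.03, 5.94, 9.04, 14.2, 31.7 and 56.6 scaled TPM, and how far the level sets what a caller lists was not tested. The widest, of 1497 bases at chr18:32033572-32035068, had the highest fold enrichment named for a member at E95.

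PPP1R3C had peaks over the coding part of its last exon at E33, E60, E70 and E95, and none was listed at E40 and E50, while its mean level was 17.3 and 17.8 scaled TPM at those 2 stages and 17.3 at E60. Among peaks named for a member, those of PPP1R3C had the highest fold enrichment at E33 (3.34), E60 (5.86) and E70 (6.88). PYGM had a peak in its 3′ UTR at E70 (151 bases, fold enrichment 3.34) and E95 (240 bases, 4.80) and none at the 4 earlier stages, while its mean level went from 13.7 scaled TPM at E33 to 91.1 at E70 and 155 at E95. ALDOA had a peak in its 5′ UTR at E33, E60, E70 and E95 (fold enrichment 2.06 to 2.84). Under its own name, PKM had a peak in the 3′ UTR of its last exon at the same 4 stages (2.81 to 3.96), partly over exons of GRAMD2A. A further peak at E70 over an exon of PKM, at chr7:60999597-60999686 (fold enrichment 5.02), was named for another gene, ENSSSCG00000001929. Single peaks were listed for HK1 at E33 (2.37), PGAM2 at E40 (1.92) and GAPDH at E95 (1.58, also over an exon of IFFO1). In PK15 cells the highest fold enrichments named for a member were 64.1 for UGP2 in the polyA list, over its first exon and over LOC106507380, and 5.91 for PYGB in the rRNA-depleted list, over an exon of ABHD12. Of the 41 peaks over their own member's exons, overlaps of at least 1 base made 12 regions: 1 was present at all 6 stages, 9 at 2 or more, and 3 at 1.

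To show what lies under the peaks that recurred over coding sequence, 3 stretches are given from the RefSeq genome Sscrofa11.1, 5′ to 3′ on the strand of the gene. Capitals mark DRACH, the sequence context of m6A: any base but C, then A or G, then AC, then any base but G, here with overlaps allowed. PPP1R3A is on the plus strand; PPP1R3C and GYS1 are on the minus strand. The PPP1R3A stretch was inside peaks at 4 stages, that of PPP1R3C at 4 and that of GYS1, which ends with the stop codon, at all 6.
PPP1R3A, chr18:32034290-32034530: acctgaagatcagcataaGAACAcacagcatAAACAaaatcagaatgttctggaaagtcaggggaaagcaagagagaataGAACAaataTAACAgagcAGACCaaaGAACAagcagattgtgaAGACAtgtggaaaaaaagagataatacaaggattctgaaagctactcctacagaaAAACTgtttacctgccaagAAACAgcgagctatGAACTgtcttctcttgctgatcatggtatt
PPP1R3C, chr14:103274924-103275072: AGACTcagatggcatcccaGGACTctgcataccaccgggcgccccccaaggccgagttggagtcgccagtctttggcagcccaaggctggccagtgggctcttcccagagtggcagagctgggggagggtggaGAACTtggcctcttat
GYS1, chr6:54235789-54235851: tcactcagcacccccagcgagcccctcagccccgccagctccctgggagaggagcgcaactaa
The PPP1R3A stretch of 241 bases held 10 DRACH matches and 4 of the reverse complement, the 149 bases of PPP1R3C held 3 and 1, and the 63 bases of GYS1 held 0 of either. Of windows of the same length centred on the unspliced peaks of the list each stretch was taken from (5902 peaks at E60 for PPP1R3A and PPP1R3C, 3422 at E40 for GYS1), 99.1%, 96.6% and 79.7% held at least 1 match, and 92.4%, 79.6% and 48.0% held the reverse complement. No match in a window says only that these letters are not in it. The GYS1 stretch is the coding end of the E40 peak of 121 bases, while the windows were centred on peaks. That whole peak held 1 match, and the GYS1 peaks of the other stages held 2 to 8.

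A common form of the context, GGAC followed by A, C or T, lay next to the shared GYS1 stretch, in the PYGM peaks and in the SLC2A1 peaks. Each site is given as 30 bases with that match alone in capitals. The GYS1 site, in the coding sequence on the minus strand, was inside peaks at 5 stages, the PYGM site at E70 and E95, and both SLC2A1 sites at all 6; PYGM and SLC2A1 are on the plus strand, and their sites lie in the 3′ UTR.
GYS1, chr6:54235853-54235882: gcgcggctccgtGGACAcagggccatccag
PYGM, chr2:7421132-7421161: cagcgcgacgaaGGACActgctcccatcct
SLC2A1, chr6:168560616-168560645: gcctgaggacggGGACCgagccctgcctag
SLC2A1, chr6:168560685-168560714: cctgcgaccccaGGACAcactaatcgaact
Over all peaks of the members' own exons, DRACH matches numbered 15.7, 20.9, 26.3, 23.6, 23.2 and 21.3 per kilobase from E33 to E95, where all peaks of the lists held 22.1 to 23.0. Matches of GGAC followed by A, C or T numbered 2.93 to 4.92 per kilobase in members' peaks and 5.64 to 6.09 in all peaks.

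SLC2A1, or GLUT1, the basal glucose transporter of growing cells, had the highest fold enrichment over a member's exon at E33 (6.56), E40 (6.73) and E95 (9.30) and in the rRNA-depleted PK15 list (7.15), in a 3′ UTR that held 1 to 3 peaks at each stage. The ID under which these peaks were named had a mean of 8.38 to 9.21 scaled TPM at every stage, but it belongs to P3H1, and the level of SLC2A1 was not read from it. PGM1, which links glycogen to glycolysis, had peaks in its 3′ UTR and first exon at E60, E70 and E95 with fold enrichments of 1.50 to 2.99. The EFCAB7 ID that carried them went from a mean of 5.77 scaled TPM at E33 to 25.4 at E95, and what share of this belongs to PGM1 was not tested.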

How the data were processed

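The authors deposited 1 table of TPM per input library and 1 list of m6A peaks per stage and per PK15 preparation. Per the submitters' processing notes, Trimmomatic, HISAT2 and the genome build Sscrofa11.1 were used, with no role or version stated. The quantifier, the peak caller, its threshold and whether replicates were pooled for peaks are not given in the sources used here. Each peak carries a fold enrichment and a p-value that the authors deposited; the fold is used as given, and the p-value is not used.

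TPM was divided by median-ratio size factors, and log2(value + 1) was fitted with limma 3.58.1 in R 4.3.3 (1 mean per stage, 18 libraries, 12 residual degrees of freedom, trended eBayes) over the 13334 genes averaging 1 TPM or more. Adjusted p-values are Benjamini-Hochberg over these genes, with a threshold of 0.05. A fold change on this scale understates the change of low genes. Recovery of known changes was checked on simulated data. Isoform ratios used deposited TPM and permutation tests (numpy 2.4.6). Peaks were set against RefSeq exons with a minimum overlap of 1 base (bedtools 2.31.1); windows were read with pysam 0.24.0. RefSeq introns matched 80.8% to 91.0% of the spliced peak junctions of a list.

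Members and lists were chosen with earlier results of these data known. All 38 members are named; values in every library are given for the isoform pairs, the 6 largest called rises and all called falls (fewer than the 6 allowed for). Named besides are the largest called rise and fall of each consecutive step, the strongest member peak of each list, members with a peak at every stage, the 3 largest called rises and falls of the other pathway genes, and PRKAG3; a further gene of this rule is not reported here. Alternatives were TPM as deposited, without the 2 most abundant genes, quantile normalization, pseudocount 0.1, other filters, a replicate block, and each library left out. Replicate numbers did not pair the samples (correlations -0.12 to 0.06). Immunoprecipitated libraries have peak lists only here.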

Additional observations from a re-analysis of the deposited data

How the results depend on the processing

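Fewer members were called on TPM as deposited than on the scaled values. The median SE over all genes for E95 against E33 was 0.44 as deposited and 0.16 as scaled. With TPM as deposited, members called numbered 15 over the 6 stages, 13 in E95 against E33, and 2, 0, 0, 0 and 1 over the consecutive steps; at an unadjusted p under 0.05 limma gave 1, 9 and 1 for the steps with 0. The lists of further genes, pyruvate and lactate, and regulators then had 2, 1 and 4 genes higher and 11, 3 and 5 lower. The E95 against E33 difference changed sign for HK2 (-0.50), GPI (-1.12), PFKL (-0.85), PGM2 (-0.46), PFKP (-0.21), PGK1 (-0.39), PKM (-0.70), LDHA (-0.05), GYG1 (-0.53), GBE1 (-0.13), PHKA1 (-0.34), PHKB (-0.27) and PFKFB3 (-0.94). Rescaled without the 2 most abundant genes, 0, 2 and 9 members were called in E50 against E40, E70 against E60 and E95 against E70, the lists had 5, 5 and 7 higher and 13, 2 and 6 lower, and HK2 (-0.03), GPI (-0.54), PFKL (-0.29), PGM2 (-0.11), PFKFB3 (-0.54), PKM (-0.11), GYG1 (-0.02) and PHKA1 (-0.00072) changed sign, as did GPI with quantile normalization (-0.06). Of the 13332 genes tested on the rescaled TPM, 105, 370 and 2443 were called in E50 against E40, E70 against E60 and E95 against E70. In the last of these, 293 genes were higher and 2150 lower. With TPM as deposited and with TPM rescaled, the median of all genes moved by -1.02 and -0.60 in log2 between E95 and E33. With quantile normalization it moved by -0.01. With only the libraries of both stages, 7, 0, 0 and 3 members were called over the first 4 consecutive steps, and the pyruvate list had 0 and the regulators 1 lower. Of all genes tested in those steps, 1766 of 13762, 8 of 12839, 11 of 12967 and 65 of 13191 were called. Without both libraries high in ENSSSCG00000032599, 0 and 1 members were called in E50 against E40 and E60 against E50, where 39 and 79 of 13518 genes were. At an unadjusted p under 0.05, limma gave 9 members for the 0 of the rescaled TPM, 7 and 5 for those with only both stages, 4 for that without both libraries and 7 for E50 against E40 without E50 replicate 1. All genes were not counted at an unadjusted p, so these counts cannot show whether members stand out. In E60 against E50 on the deposited TPM, with 9 such members, the median log2 change was 0.73 for members and 0.63 for all genes tested. With a mean of at least 5 TPM, 2 further genes were lower and 8 pyruvate genes and 9 regulators higher; fewer genes were tested. With the replicate block, 24 members were called over the 6 stages, 26 in E95 against E33 and 9, 1, 2, 8 and 13 over the consecutive steps, and 1 regulator was lower; the blocked fit moved no other count by over 1.5 times, and of the named calls it ended those of ALDOC in E40 against E33, SLC37A4 and MYC. Restricted to peaks at or above the list median fold, members with a peak numbered 0, 1, 2, 2, 2 and 3 over the stages and 12 and 3 in PK15. All genes were not counted under that restriction. On leaving out each library, members called ranged from 22 to 26 over the 6 stages, 24 to 26 in E95 against E33, and 6 to 14, 0 to 4, 1 to 3, 5 to 9 and 11 to 14 over the consecutive steps. The lists ranged from 9 to 11, 12 to 13 and 12 to 14 higher and from 1 to 6, 0 to 1 and 0 to 2 lower, and the log2 ratio changes from 5.63 to 5.84 (ENO3 to ENO1), 3.05 to 3.39 (PGAM2 to PGAM1), 5.92 to 6.50 (PYGM to PYGB) and 0.57 to 0.94 (PFKM to PFKP). Members not called between E33 and E95 in the main fit gained a call in some settings. PFKL was called only without E95 replicate 3 (limma, adjusted p = 0.0496), and PGM2 only with quantile normalization (0.0208). GPI was called lower on the rescaled TPM (-0.54, adjusted p = 0.00762), and PFKFB3 was called lower on TPM as deposited (-0.94, adjusted p = 0.0265). Except where stated, the cause was not tested. Depth is unknown, and the files limit what low genes can show.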
